A study of Drosophila melanogaster with 4 samples.

Results

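U is the sequence of the Drosophila melanogaster genome (FlyBase release 5) that joins scaffolds not placed on any chromosome arm. Its members here are the enriched regions that the combined list of the replicate set names on U, 1261 of 21932, and by the same rule 733 of 6699 regions in ChIP replicate 1 and 628 of 10048 in ChIP replicate 2. The lists come from chromatin immunoprecipitation and sequencing (ChIP-seq) of Su(var)3-9 in homogenized larvae of the third instar, wild type for genotype and of the strain Oregon-R (Oregon-R-modENCODE), with the affinity-purified rabbit antibody Q2598. The series holds 2 ChIP libraries and 2 input libraries of the same strain and stage. Lists of the input libraries were not used here. The labels do not tell whether the 2 ChIP libraries are from different batches of larvae, and the spread between them may be technical only. U is 10049037 bp long, 7.19% of the sequence named in the headers apart from Uextra, which carries no region. No region on U is called depleted and none runs past its end.

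Su(var)3-9 is a histone methyltransferase that places a repressive mark on the tail of histone H3. The mark is bound by HP1, and together they form heterochromatin, the compact, repeat-rich chromatin around centromeres and on most of the Y chromosome. The gene was named for mutations that suppress the silencing of genes moved next to heterochromatin (position-effect variegation). Scaffolds stay unplaced mostly because repeats keep them from being joined to an arm. The sequences 2LHet, 2RHet, 3LHet, 3RHet and XHet hold placed pericentric heterochromatin, and YHet holds fragments of the Y chromosome. No sequence of the U regions is shown, since no genome of release 5 was at hand.

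The authors gave each region 1 enrichment score, whose scale the files do not name. All 6699, 10048 and 21932 scores of the replicate 1, replicate 2 and combined lists equal the log2 of a ratio of 2 whole numbers times 1 constant per list (2.24, 0.824 and 1.21), within a relative tolerance of 1e-12. The scores are therefore on a log2 scale. The files do not say what the whole numbers count. They are given below in lowest terms, so each is the smallest that could stand in the ratio with the constant of its list. The scores fix that constant only up to a ratio of whole numbers. A constant that left small terms was chosen, and every numerator, denominator and sum of terms below depends on it. The whole numbers were not taken as read counts, and read depth is unknown.

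Regions on U scored higher than those on the Het sequences in both replicates. The median score in replicate 1 was 1.49 on U, against 1.15 on the 6 Het sequences pooled. That in replicate 2 was 1.23 on U and 0.85 on the Het sequences. The difference of medians averaged 0.36 ± 0.03 (SD, n = 2 libraries), larger than the spread between the libraries, and it was 0.38 in the combined list (1.16 on U against 0.78). The exact sign-flip test over 2 libraries cannot give a p below 0.5, so no p-value was computed for this or any other difference. Against YHet alone the order was the opposite. The median of U was lower by 0.08 in replicate 1 and by 0.45 in replicate 2 than the 1.57 and 1.69 of YHet, where only 18 and 11 regions were called. The combined list gave medians of 1.16 for U and 1.21 for the 38 regions of YHet. The upper part of the U distribution was long. There, in the combined list, its middle 50% of regions scored between 0.83 and 1.61 and its highest 10% above 2.17, against 0.58 to 1.05 and 1.34 on the Het sequences. Scores above 2 were held by 163 U regions of replicate 1 (22.2%) and 93 of replicate 2 (14.8%), against 32 (3.35%) and 16 (1.89%) Het regions. On YHet the shares above 2 were larger than on U, at 27.8% of 18 regions and 18.2% of 11, though none of these scored above 3, as 23 U regions did in replicate 1 and 16 in replicate 2.

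**Figure D1:**
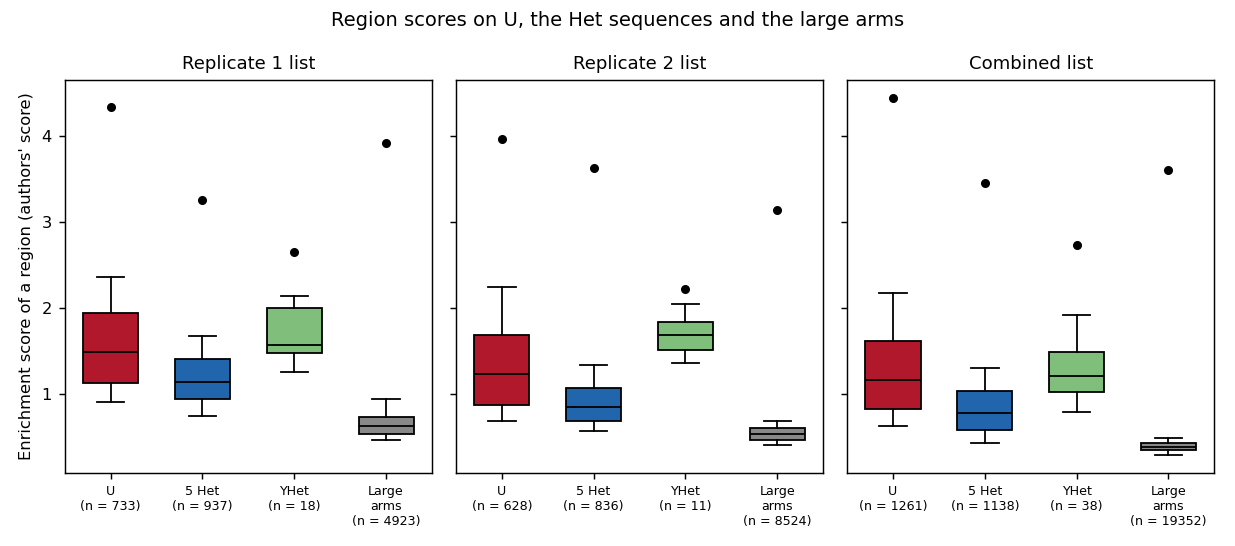
Enrichment scores (authors' score, vertical axis) on U, on the 5 Het sequences other than YHet, on YHet and on the large arms in each list; boxes span the quartiles with the median as a line, whiskers run to the 10th and 90th percentiles and the dot is the highest score. U lies above the 5 Het sequences and the large arms in all 3 lists and has the highest single score of each list (4.34, 3.97 and 4.45).

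The top of each list was mostly U. Of the 100 highest-scoring regions of a list, 76 lay on U in replicate 1, 80 in replicate 2 and 75 in the combined list (74 to 79 by how 15 tied scores are ordered), although U held 10.9%, 6.25% and 5.75% of all regions. The Het sequences together held 12, 15 and 16 of these, and the large arms 9, 4 and 9. Among the highest 1000, U held 456, 451 and 652. The ratios behind the scores of these regions had small terms once reduced. Over the 100 highest-scoring U regions the median denominator was 5 in replicate 1, 3 in replicate 2 and 1 in the combined list. Over the 100 highest-scoring Het regions it was 29, 16.5 and 11. At a given numerator a smaller denominator gives a higher score, so the denominators of regions chosen by score are not independent of that choice. Over all U regions the median denominator was 31, 21 and 31, against 103, 93 and 149 for Het regions and 153, 132 and 246 for regions of the large arms. A denominator of 10 or less stood behind 26.5% of U regions in replicate 1 and 32.6% in replicate 2, against 7.54% and 8.26% of Het regions. YHet resembled U in this measure, with median denominators of 22, 11 and 22. Per kb of region, numerator and denominator summed to a median of 30.7 on U and 76.6 on the Het sequences in replicate 1. The medians in replicate 2 were 40.2 on U and 120 on the Het sequences.

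The score difference between U and the Het sequences was much smaller among regions with large terms. This comparison was chosen after the values were seen. Where numerator and denominator summed to at least 300, the median score was 1.25 over 97 U regions against 1.20 over 332 Het regions in replicate 1, and 0.95 over 126 against 0.85 over 417 in replicate 2. The difference averaged 0.08, against 0.36 over all regions. It was 0.08 in the combined list as well (0.84 over 289 U regions and 0.76 over 630 Het regions). Among such regions U held 23 of the 100 highest scores of replicate 1, 26 of replicate 2 and 41 of the combined list. The large arms held 1834, 5157 and 13778 such regions beside the 97, 126 and 289 of U. U was thus a smaller part of them than of all regions, and these counts are not on the same footing as those over all regions. The score difference was not graded throughout. Where the terms summed to less than 10 the medians in replicate 2 were both 1.72, over 38 U and 17 Het regions, while in replicate 1 they were 1.90 over 79 U regions and 1.17 over 37 Het regions. From 10 to below 30 they were 1.97 over 131 U and 1.06 over 57 Het regions in replicate 1. In replicate 2 they were 1.89 over 114 and 0.99 over 44. From 30 to below 100 the medians on U and the Het sequences were 1.61 and 1.25 in replicate 1, and 1.41 and 0.95 in replicate 2. From 100 to below 300 they were 1.15 and 1.07 in replicate 1, and 0.99 and 0.79 in replicate 2. The part of the small terms in the higher scores of U was not tested.

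**Figure D2:**
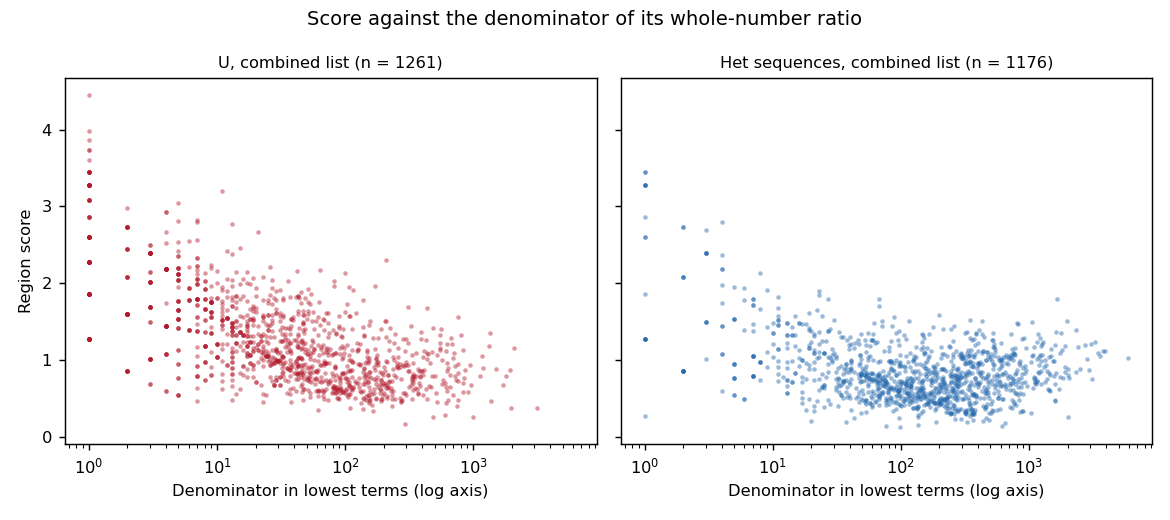
Score of each region of the combined list (vertical axis) against the denominator of its whole-number ratio in lowest terms (horizontal log axis), for 1261 U regions on the left and 1176 Het regions on the right; each point is 1 region. Scores above 3 stand at the low end of the denominators, where points fall on a few repeated values, and U has many more regions there.

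The highest-scoring U regions of the combined list were short and absent from both replicate lists. The top region (U 9705664 to 9708124, 2461 bp) scored 4.45, from a ratio of 18 to 1. It was followed by U 7519121 to 7520399 (1279 bp) at 3.98 with a ratio of 13 to 1, and by U 9619811 to 9620905 (1095 bp) at 3.86 with 12 to 1. Regions at U 2727845 to 2729554 (1710 bp) and U 6414106 to 6415142 (1037 bp) both scored 3.74, each from 11 to 1. The sixth (U 8781267 to 8782280, 1014 bp) scored 3.60 from 10 to 1. The remaining 4, starting at 844892, 2022185, 2179838 and 4771959, were 1001 to 1024 bp long and scored 3.45 from 9 to 1. They are the first by position of 7 U regions tied at that score, so 13 scored at least as high. Each of these 13 regions had a denominator of 1, and none shared a base with a region of replicate 1 or replicate 2. The distance from them to the nearest region of either replicate list ran from 512 bp, for the sixth, to 21798 bp, for the one at 2179838. Of the 100 highest-scoring U regions of the combined list, with ties taken by position, 77 overlapped neither replicate list and 10 overlapped both, and with all ties kept it was 79 and 10 of 103. Over all 1261 U regions of that list 36.2% overlapped neither and 33.2% both, and over all sequences 44.4% and 15.6%. The median length of the 100 was 1304 bp, and 50 were shorter than 1301 bp, the shortest length in the replicate lists.

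The top regions of 1 replicate were seldom the top regions of the other. In replicate 1 the 5 highest scores on U belonged to U 6489452 to 6491111 and U 6546860 to 6549086 (both 4.34, from 9 to 1), U 7185353 to 7187354 and U 7584509 to 7586522 (both 4.07, from 15 to 2) and U 1603116 to 1604504 (3.97, from 7 to 1). None of the 5 had a partner in replicate 2. The combined list gave the first 4 scores of 2.45, 2.39, 1.76 and 3.04 and did not call the fifth. In replicate 2 the 5 highest were U 8897731 to 8899731 (3.97), U 5972464 to 5974464 (3.89), U 8995703 to 8997042 (3.81), U 6829337 to 6831643 (3.72) and U 6056728 to 6058173 (3.63), with numerators of 19, 18, 17, 16 and 15 over a denominator of 1. Only the second of them overlapped a replicate 1 region, which scored 2.75. The combined list scored these 5 regions at 2.86, 2.81, 1.78, 1.90 and 1.60. Of the 100 highest-scoring U regions, 52 of replicate 1 overlapped any U region of replicate 2, and 26 overlapped one of its 100 highest. In the other direction the counts were 44 and 25. The shares of 52 and 44 of 100 with any partner lay below the 61.4% and 74.8% of all U regions. Over all sequences 53.5% of replicate 1 regions and 37.5% of replicate 2 regions had a partner.

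Some U stretches did score high in both libraries. Ranked by the lower of the 2 scores, the first was U 6087771 to 6089270 (1500 bp), at 3.17 in replicate 1 and 3.18 in replicate 2, though the combined list gave the region over it only 1.33. The second was U 5972525 to 5974209 (1685 bp), at 2.75 and 3.89, and 2.81 in the combined list. The third was U 6020709 to 6022552 (1844 bp), at 3.07 and 2.72, and 2.83 in the combined list. The fourth (U 6778040 to 6779135, 1096 bp) scored 2.63 and 2.59, and the fifth (U 7275831 to 7277647, 1817 bp) scored 2.58 and 2.89. All 5 lay beyond the midpoint of U, the first 3 of them between 5972525 and 6089270. Their denominators were 1 to 4 in replicate 1 and 1 to 3 in replicate 2.

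U regions were shorter than those of the pooled Het sequences but not than those of YHet, and on U length did not go with score in either replicate. Median lengths in replicate 1 were 2068 bp on U and 2689 bp on the Het sequences. Those in replicate 2 were 2024 bp on U and 2348 bp on the Het sequences. The difference averaged −473 ± 210 bp (SD, n = 2). The combined list gave 2059 bp on U and 2569 bp on the Het sequences. On YHet the medians were 1788 bp in replicate 1, 2004 bp in replicate 2 and 1488 bp in the combined list. Across regions, Spearman's rho between score and length was 0.00 over 733 U regions of replicate 1 and −0.01 over 628 of replicate 2, against 0.40 over 955 and 0.42 over 847 Het regions. The combined list gave −0.13 on U and 0.30 on the Het sequences. On YHet rho was 0.66 over 18 regions of replicate 1, −0.13 over 11 of replicate 2 and −0.09 over 38 of the combined list. Regions of 1 library share its depth and its caller, so these correlations are given as descriptions. The shortest class shows the contrast. Within the combined list the 261 U regions of 1001 to 1300 bp had a median score of 1.45, with a median denominator of 7, while the 129 U regions of 5000 bp or more had 1.12, with a median denominator of 315. On the Het sequences the 190 regions of the short class had 0.75 and the 267 of the long class 0.99. The classes between (1301 to 1999, 2000 to 2999 and 3000 to 4999 bp) had 1.05, 1.19 and 1.10 on U. On the Het sequences they had 0.58, 0.74 and 0.80, so neither order was even across lengths. The replicate lists hold no region as short as the shortest class.

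The longest U regions stood on large whole numbers and were called in both replicates. The longest (U 303487 to 325914, 22428 bp) scored 1.33 in the combined list, from a ratio of 1681 to 810. It corresponded to 1 region of replicate 1 (score 1.70) and 2 regions of replicate 2 (higher score 1.21). The next were U 399941 to 413693 (13753 bp, score 1.19), U 1392065 to 1404410 (12346 bp, 1.28), U 1249725 to 1261801 (12077 bp, 0.87) and U 3544966 to 3556627 (11662 bp, 1.37). Their replicate 1 scores were 1.50, 2.00, 1.59 and 1.77, and their replicate 2 scores were 1.26, 1.27, 0.94 and 1.19, taking the highest where several regions lay inside. All 5 overlapped regions of both lists, and their denominators ran from 165 to 1936. The longest run of neighbouring combined regions less than 1 kb apart held 7 regions over 35106 bp (U 1944735 to 1979840).

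A smaller share of U than of the Het sequences lay inside regions. Regions of replicate 1 covered 19.9% of U and 39.4% of the Het sequences, and those of replicate 2 covered 15.5% of U and 30.9% of the Het sequences, a difference of −17.5 ± 2.89 percentage points (SD, n = 2). Combined regions covered 33.8% of U (3.40 Mb) and 49.5% of the Het sequences. YHet was covered less than U in each list, at 10.4%, 8.55% and 23.0%. Counted as regions, U had 72.9 and 62.5 per Mb in the replicate lists, against 103 and 91.3 on the Het sequences, while in the combined list the densities were 125 and 127 per Mb.

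Both coverage and score differed along U, which was divided into 10 equal segments, numbered in order along the sequence. Covered share was highest in segments 1 and 2, at 33.5% and 35.0% in replicate 1 and 24.5% and 24.96% in replicate 2. It was lowest in segment 9, at 8.06% and 5.94%, and another maximum lay in segment 7, at 25.1% and 20.1%. The score was lowest where coverage was highest, in segments 1 and 2, but segment 7 was high in both, with medians of 1.83 in replicate 1, 1.60 in replicate 2 and 1.51 in the combined list. Between the ends of U the median score was higher in the last segment. It was 1.17 in segment 1 and 2.02 in segment 10 in replicate 1, 0.96 and 1.64 in replicate 2, and 0.83 and 1.57 in the combined list. In replicate 1 the median score was 1.26 before the midpoint of U and 1.78 beyond it, and in replicate 2 these medians were 1.05 and 1.49. Scores above 2 made up 12.1% and 6.80% of regions before the midpoint and 34.8% and 25.1% beyond it. The median denominator was 63 in segment 1 and 9 in segment 10 in replicate 1, 53 and 7.5 in replicate 2, and 103 and 13 in the combined list. It moved with the score, and its part in the score difference along U was not tested. The share of regions with a partner in the other replicate was also lower towards the end. In segment 1 it was 64.8% of 108 regions of replicate 1 and 83.1% of 83 of replicate 2, and in segment 10 it was 41.7% of 48 and 55.6% of 36. The order of the scaffolds within U is not given in the sources used here, so a segment of U is no chromosomal position.

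**Figure D3:**
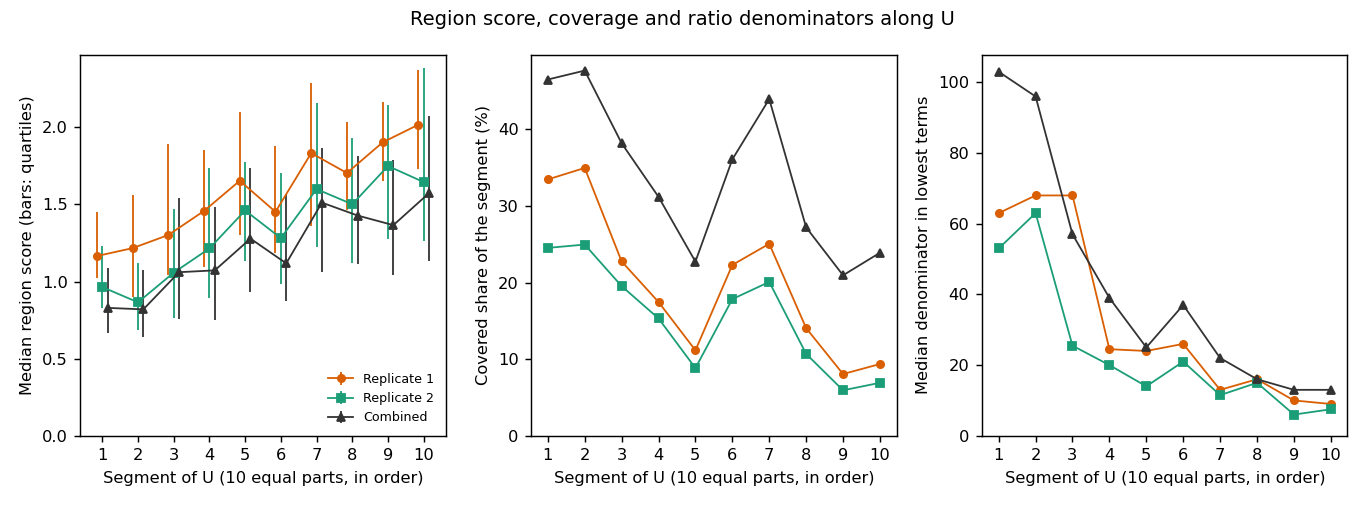
Median region score with quartiles (left), covered share in percent (middle) and median denominator in lowest terms (right) for each of 10 equal segments of U, in order along the sequence, in the 3 lists. The score is higher in segment 10 than in segment 1 in every list, while the denominator is lower, and coverage has maxima at segments 2 and 7.

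In windows of 100 kb the replicates ranked U alike. Over the 100 full windows Spearman's rho between the covered shares of replicate 1 and replicate 2 was 0.90 (Pearson's r 0.93), and over the 96 windows with regions in both lists rho between the median scores was 0.66. These are descriptions, since both lists share the reference sequence. The windows best covered by the combined list were U 300001 to 400000 (76.3%), U 1300001 to 1400000 (69.9%), U 6000001 to 6100000 (66.5%), U 2400001 to 2500000 (62.4%) and U 500001 to 600000 (62.2%). Their coverage was 62.9%, 56.3%, 48.4%, 40.1% and 55.0% in replicate 1, and 47.0%, 50.3%, 39.1%, 37.8% and 33.0% in replicate 2. Median scores differed among them. In the window at 6000001 they were 2.08 in replicate 1 and 1.57 in replicate 2, and in the window at 1300001 they were 1.05 and 0.69. The windows least covered by the combined list were U 700001 to 800000, which held no region in any list, and those starting at 4500001 (7.09%), 5300001 (9.53%), 8000001 (11.1%) and 8100001 (11.6%). The widest gap between neighbouring regions was at the same place in all 3 lists. It spanned 687558 to 820301 in the combined list (132744 bp). Replicate 1 left 687573 to 857468 without a region, and replicate 2 left 687457 to 826445.

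Most U regions of either replicate had a partner in the other, in smaller shares than on the pooled Het sequences and in larger ones than on YHet. Among 733 regions of replicate 1, 450 shared at least 1 bp with a replicate 2 region, or 61.4% (95% Wilson interval 57.8 to 64.8), against a background of 53.5% over all sequences and 74.0% on the Het sequences (71.2 to 76.7). In replicate 2, 470 of 628 regions had a replicate 1 partner, or 74.8% (71.3 to 78.1), against 37.5% over all sequences and 90.1% on the Het sequences (87.9 to 91.9). On YHet 44.4% of 18 replicate 1 regions (24.6 to 66.3) and 54.5% of 11 replicate 2 regions (28.0 to 78.7) had a partner, and both intervals include the share of U. The intervals cover counting error only, and neighbouring regions are not independent. A partner needs only 1 shared base, and coverage by the other list had the same order. Replicate 2 covered 30.9% of the Het sequences, 15.5% of U and 8.55% of YHet, and replicate 1 covered 39.4%, 19.9% and 10.4%. The part of coverage and region length in the shares with a partner was not tested. U regions without a partner were shorter, had smaller denominators and scored higher. In replicate 1 the 283 U regions without a partner had a median length of 1771 bp and a median denominator of 15, against 2565 bp and 44 for the shared ones. In replicate 2 the 158 without one had 1756 bp and 6, against 2186 bp and 33. Median scores on U without and with a partner were 1.58 and 1.46 in replicate 1, and 1.66 and 1.12 in replicate 2. On the Het sequences they were 1.00 and 1.18 in replicate 1, and 0.90 and 0.85 in replicate 2.

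Where U regions of both lists overlapped, replicate 1 usually scored higher. The 502 overlapping pairs had a median score of 1.46 in replicate 1 and 1.12 in replicate 2, and replicate 1 was higher in 426 of them (84.9%). The median difference within pairs was 0.32. On the Het sequences it was 0.34, with replicate 1 higher in 766 of 827 pairs. Each list has its own constant, so a shift between lists cannot be read as a difference in binding. Spearman's rho over the U pairs was 0.81 and Pearson's r 0.78, against 0.66 and 0.70 on the Het sequences, as descriptions across regions. The starts of paired U regions were a median of 414 bp apart and their ends 381 bp apart, against 497 and 512 bp on the Het sequences.

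**Figure D4:**
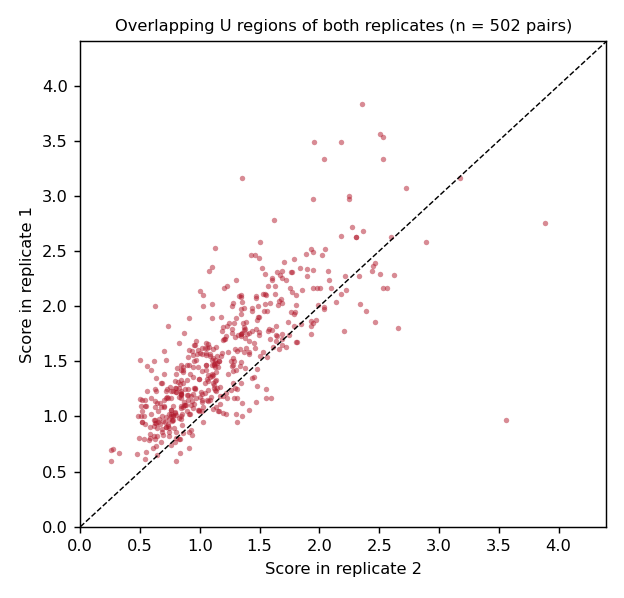
Score in replicate 1 (vertical axis) against score in replicate 2 (horizontal axis) for the 502 pairs of overlapping U regions, with the line of equal scores dashed. Most points lie above the line (426 of 502), and high scores in 1 list go with high scores in the other among regions that both lists call.

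The combined list added many U regions that neither replicate list named. Of its 1261 U regions, 419 overlapped both replicate lists (33.2%, 95% Wilson interval 30.7 to 35.9), 258 replicate 1 alone, 127 replicate 2 alone and 457 neither (36.2%, 33.6 to 38.9). Over all sequences 15.6% of combined regions overlapped both lists and 44.4% neither. On the Het sequences the shares were 51.4% (48.5 to 54.2) and 23.2% (20.9 to 25.7). On YHet, with 38 regions, they were 13.2% (5.75 to 27.3) and 52.6% (37.3 to 67.5). Those 457 had a median score of 1.39, a median length of 1297 bp and a median denominator of 10, against 1.11, 3951 bp and 124 for the 419 in both. Of this group, 229 were shorter than 1301 bp, the shortest length in either replicate list. Among the 1000 U regions of at least that length, 228 overlapped neither list (22.8%), and their median score was 1.24. The share was 26.7% over all sequences, 12.8% on the Het sequences and 36% of 25 regions on YHet. On the Het sequences the order of scores differed, with a median of 0.75 outside both lists and 0.86 for regions in both. In the reverse direction, 19 replicate 1 regions and 5 replicate 2 regions on U had no partner in the combined list. Few combined regions joined replicate regions, as 70 on U (5.55%) held more than 1 region of replicate 1, against 607 that held 1 and 584 that held none, and 70 held more than 1 of replicate 2. The opposite case also occurred, with 38 replicate 1 regions and 1 replicate 2 region lying over 2 or more combined regions.

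**Figure D5:**
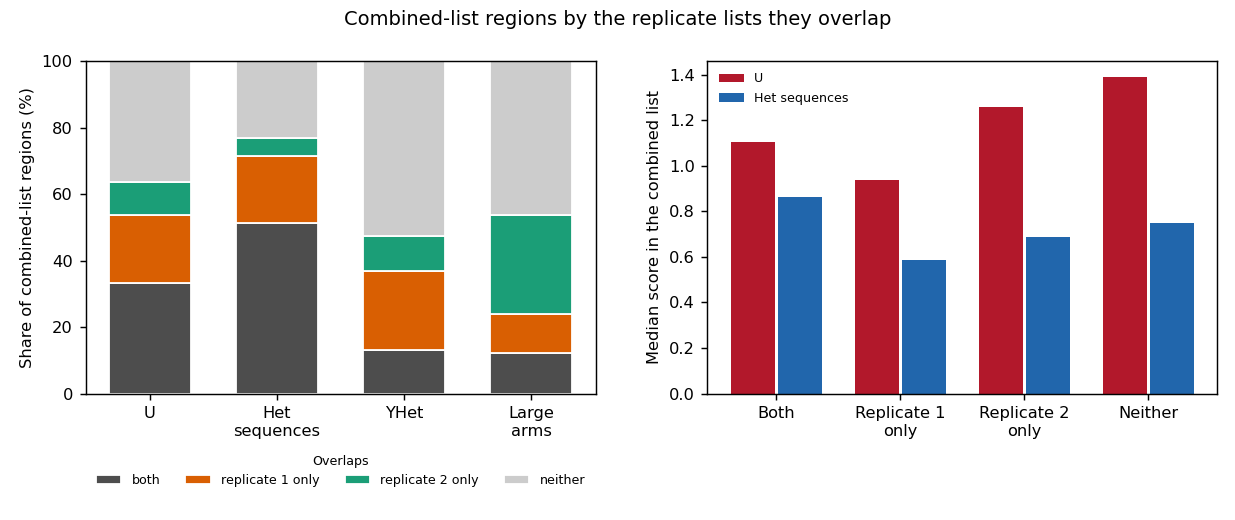
Left, share of combined-list regions (%) that overlap both replicate lists, 1 of them or neither, on U, the Het sequences, YHet and the large arms. Right, median score of these groups on U and on the Het sequences; on U the regions outside both lists have the highest median (1.39), and on the Het sequences those in both lists do (0.86).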

How the data were processed

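The authors deposited called regions, 1 list per ChIP library and 1 for the replicate set, with coordinates of FlyBase release 5 per the file headers. A score assigned by the authors accompanies every region, and no source names its scale. The submitters' processing notes name Bowtie 0.12.7. Its handling of reads with several matches, the tool and threshold behind the calls and the use of input, each of which could change calls on repeat-rich sequence, were not given in the sources used here. Calls measured at least 1301 bp for either replicate and 1001 bp for the replicate set.

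Regions on U were taken by sequence name, leaving out depleted regions. The 6 Het sequences were pooled for comparison. Coverage is bases inside regions over the length in the header, and a partner shares at least 1 bp. Each score was written as log2 of a constant times a ratio of whole numbers with a continued fraction (relative tolerance 1e-12, denominators up to 20000). The constant of a list was chosen so that the ratios had small terms. The steps were tested on simulated lists. Values are given per list, with mean ± SD over 2 replicates. No p-value was computed.

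Named regions are the 10 highest-scoring and 5 longest U regions of the combined list, the 5 highest of each replicate, the 5 stretches in both replicates with the highest lower score, and the 5 windows of 100 kb with most and with least coverage. The regions, lists and rules were chosen with earlier results of these data known. Alternatives covered the combined list, each replicate alone, Het sets, top 50% by score, longest 50%, merging under 1 kb, 50% reciprocal overlap, U before and beyond its midpoint and size of the terms. Genes were not assigned, because the only gene table used here has release 6 coordinates. Read depth is unknown. The software was pandas 2.3.3, Matplotlib 3.10.9, SciPy 1.17.1 and NumPy 2.4.6 under Python 3.11.15.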

Additional observations from a re-analysis of the deposited data

How the results depend on the processing

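Of 39 alternatives, 36 kept the direction, and 20 of these moved by less than the spread between replicates or the counting interval. The 3 that turned it compared U with YHet alone, giving −0.27 for the median score, 8.18 percentage points for coverage and 150 bp for median length. Part of this tally was fixed in advance. With 2 replicates, leaving 1 out always moves their mean by less than their SD. The shares of top scores and of regions with a partner cannot turn negative, so they could only keep their direction. The top 50% by score was cut over the whole list, where the large arms hold most regions and had medians of 0.62 and 0.53. The 10th percentile of U was 0.90 and 0.68, so most U regions stayed in and these alternatives repeat much of the main set. The score excess of U over the Het sequences, 0.36 as reported, ran from 0.34 to 0.38 with a replicate left out. It was 0.32 in the longest 50% of regions, 0.31 as a length-weighted mean, 0.39 after merging, 0.15 for U before its midpoint and 0.64 beyond it. Among regions with terms summing to at least 100 or 300, alternatives chosen after seeing the data, it was 0.10 and 0.079; the cause was not tested. The coverage difference, −17.5 points, was −19.6 to −15.5 with a replicate left out, −13.9 before the midpoint and −21.1 beyond it. Taken as a density, a different quantity, the difference averaged −29.4 regions per Mb over the 2 replicates. The length difference, −473 bp, was −621 to −325 bp with a replicate left out and −1215 bp after merging. U held 76 to 80% of the top 100 scores with a replicate left out, 75% in the combined list, 45.4% of the top 1000 and 24.5% among regions with terms of at least 300. U was a smaller part of the regions with such terms than of all regions. With overlap of 50% of both regions, 47.1% of replicate 1 and 54.9% of replicate 2 U regions had a partner; leaving out a replicate gives no such value. No paired analysis was possible because the results come from no test; each difference was taken within a library. Unknown depth limits what an uncalled stretch can show.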

Other observations

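Score values recurred on U more often than on the Het sequences. In the combined list 488 of the 1261 U regions (38.7%) shared their exact score with another U region, against 150 of the 1176 Het regions (12.8%). In replicate 1 the shares were 36.7% and 16.6%, and in replicate 2 they were 30.1% and 9.56%. The commonest value on U in replicate 1, 2.17, belonged to 19 regions, and the commonest in the combined list, 1.28, to 16. The 100 highest-scoring U regions of the combined list held 36 different scores.

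Lengths over 2000 and up to 2100 bp were held by 65 U regions of replicate 1 (8.87%) and 60 of replicate 2 (9.55%), against 61 (6.39%) and 49 (5.79%) Het regions. Lengths within 100 bp of the shortest in the combined list were held by 145 U regions (11.5%) and 88 Het regions (7.48%). These values were looked at after the lists had been seen.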
